A study of Mus musculus with 72 samples.

Results

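Livers labelled SIRT6 knockout (KO) were compared with livers labelled wild type (WT) at zeitgeber time 12 (ZT12), when lights go off in a 12 h light and 12 h dark cycle. The samples were taken by their titles: 3 arrays of SIRT6 KO liver at ZT12 and 3 arrays of the WT liver collected for the same cohort at ZT12, 6 of the 36 arrays of that cohort and of the 72 arrays of the series. The series profiled livers of 2 cohorts, SIRT6 and SIRT1, each with its own WT, at 6 times 4 h apart. Both ZT12 groups carry the strain label 129 mixed. The labels describe the KO as liver-specific; the sources used here give neither the promoter driving Cre, nor the floxed exons, nor the age and sex of the mice. Livers were snap frozen, total RNA was extracted with Trizol and cleaned on a column, and biotin-labelled material was hybridised with 1 sample per array. Nothing in the labels says that the numbered replicates were separate mice, so a p-value here measures only the spread between numbered samples, which may be technical.

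SIRT6 is a nuclear NAD-dependent deacylase that removes acetyl groups from histone H3 and restrains transcription at many metabolic genes, among them genes of glycolysis and of lipid synthesis. In the liver it has been linked to the circadian clock, in which CLOCK and BMAL1 (encoded by Arntl) drive the Per, Cry, Nr1d and Dbp genes through E-boxes, and the products of these genes feed back on CLOCK and BMAL1. Around lights-off, when mice begin to feed, Arntl is climbing from its trough while Dbp, Nr1d1 and Ciart are descending from their daytime peaks.

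Levels and differences below are log2(intensity + 16) values, a scale that shrinks the changes of dim genes; a difference is SIRT6 KO minus WT, and it is given with its standard error (SE). The threshold was a limma adjusted p of 0.05, corrected over 13308 genes and 6 times together. Each SE and p uses a spread pooled over the 12 groups of the 36 cohort arrays, not that of the 6 ZT12 arrays alone. The median probe set intensity of the 6 arrays lay between 45.9 and 52.7, and precision is limited by how many arrays there were. The tissue label held: the 12 hepatocyte markers averaged 12.3, 12.5 and 12.5 in the KO arrays and 12.3, 12.5 and 12.5 in the WT arrays, and the 16 pancreas markers and 18 markers of kidney, gut and muscle that were measured left only 3 and 6 genes bright enough to test.

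One array stood apart. WT replicate 1 lay a root mean square distance of 0.644 from the mean of its group mates, against 0.229 to 0.492 (median 0.336) in the other 35 arrays of the cohort, and its correlation with them was 0.9035 and 0.9202. In that array 1148 genes were more than 1 log2 unit away from the other WT arrays at ZT12, 995 above and 153 below, where the other arrays of the cohort had 68 to 670 such genes. KO replicate 1, at a distance of 0.468, deviated the same way: 1095 of the 1148 genes (95.4%) had the same direction there, and 405 (35.3%) also lay more than 1 log2 unit from the other KO arrays. Results are therefore given with all 6 arrays, without WT replicate 1, and, where it matters, without replicate 1 of both groups.

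The probe set of Sirt6, the targeted gene, read 8.07, 7.89 and 7.81 in the KO-labelled arrays, against 7.59, 7.25 and 7.07 in the WT-labelled arrays. Every KO-labelled array lay above every WT-labelled array. The difference was 0.62 ± 0.12, or 1.54-fold (limma adjusted p = 0.029), and 0.76 without WT replicate 1 (limma adjusted p = 0.0053). Sirt6 was thus higher, not lower, where the labels name its knockout. The sources used here do not place the probe set relative to the deleted part of the gene, so it checks nothing about the deletion, and each direction below rests on the labels.

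At lights-off 12 of the 13308 genes tested (0.0902%) differed between the labels, 9 of them higher in KO (0.0676%) and 3 lower (0.0225%). All 12 kept 1 direction at all 6 times, and 9 were 1.5-fold or more apart at ZT12. None was a predicted gene, and of the other called genes Zwint alone lies on the chromosome of Sirt6. Without WT replicate 1 the count was 14 (0.105%), 10 higher (0.0751%) and 4 lower (0.0301%), and 11 of the first 12 were among them. Without replicate 1 of both groups it was 8 (0.0601%), 7 higher (0.0526%) and 1 lower (0.00751%), all of them among the first 12. At an unadjusted p under 0.05 there were 600 genes (4.51%), 972 (7.3%) without WT replicate 1 and 431 (3.24%) without replicate 1 of both. The count depended on the fit: limma on these 6 arrays alone passed 0 genes (381 at an unadjusted p under 0.05), and limma with array weights passed 979.

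The largest difference was that of Apba2, which encodes an adaptor protein of the Mint family, known in neurons for binding the amyloid precursor protein. Apba2 read 7.82, 7.001 and 7.06 in KO and 5.47, 4.81 and 4.91 in WT, a difference of 2.23 ± 0.37 (limma adjusted p = 0.0054). The lowest KO array lay far above the highest WT array, and the difference was 2.43 without WT replicate 1 (limma adjusted p = 0.0063). Its WT mean of 5.06 lay under 6.00, the overall mean at or below which genes were left out, so its WT level is a weak signal and no fold is given. The same holds for the WT means of Nuggc (5.93) and Tceal1 (5.62), described next.

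Fam81a read 7.71, 7.91 and 8.55 in KO and 6.86, 5.76 and 5.66 in WT. WT replicate 1 was the highest of the WT arrays, so the difference of 1.96 ± 0.35 (limma adjusted p = 0.011) became 2.35 without it (limma adjusted p = 0.0033). Nuggc, a nuclear GTPase known from germinal centre B cells, read 7.80, 7.54 and 7.28 in KO and 6.20, 5.89 and 5.69 in WT, with a difference of 1.61 ± 0.27 (limma adjusted p = 0.0064). Zfp518a, a zinc finger protein, read 8.89, 8.64 and 8.92 in KO and 8.05, 7.56 and 7.53 in WT, with a difference of 1.103 ± 0.17 and the smallest adjusted p of the comparison (limma, 0.0036). In all of these the 2 groups did not overlap, and the WT array closest to the KO arrays was replicate 1.

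Tceal1, of a family of small transcription elongation factor-like proteins, read 7.04, 6.31 and 6.44 in KO and 5.88, 5.44 and 5.54 in WT (difference 0.98 ± 0.19, limma adjusted p = 0.019). Zwint, a kinetochore protein that recruits the spindle checkpoint, read 10.03, 10.05 and 10.07 in KO and 9.51, 9.27 and 9.41 in WT (difference 0.66 ± 0.11, limma adjusted p = 0.0073). Gdpd1, a glycerophosphodiester phosphodiesterase, differed by 0.61 ± 0.12 (limma adjusted p = 0.039). Cuedc2, a ubiquitin-binding protein, differed by 0.50 ± 0.09 (limma adjusted p = 0.0094). Both had all KO arrays above all WT arrays.

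Tc2n, a nuclear protein with tandem C2 domains, was the only gene to fall by more than 1 log2 unit among the 12. It read 4.93, 5.22 and 5.35 in KO and 6.65, 6.40 and 7.003 in WT, a difference of -1.52 ± 0.25 (limma adjusted p = 0.0054). Its KO mean of 5.17 also lay under 6.00, so its KO level is a weak signal. Gstm7, a glutathione S-transferase of the mu class, read 9.44, 9.54 and 9.29 in KO and 9.67, 10.01 and 9.99 in WT (difference -0.47 ± 0.10, limma adjusted p = 0.039). Anapc11, the RING subunit of the anaphase-promoting complex, read 6.84, 6.77 and 6.66 in KO and 7.22, 7.21 and 7.19 in WT (difference -0.45 ± 0.10, limma adjusted p = 0.049). Anapc11 missed the threshold without WT replicate 1 (limma adjusted p = 0.11), although its difference of -0.44 was nearly unchanged.

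**Figure D1:**
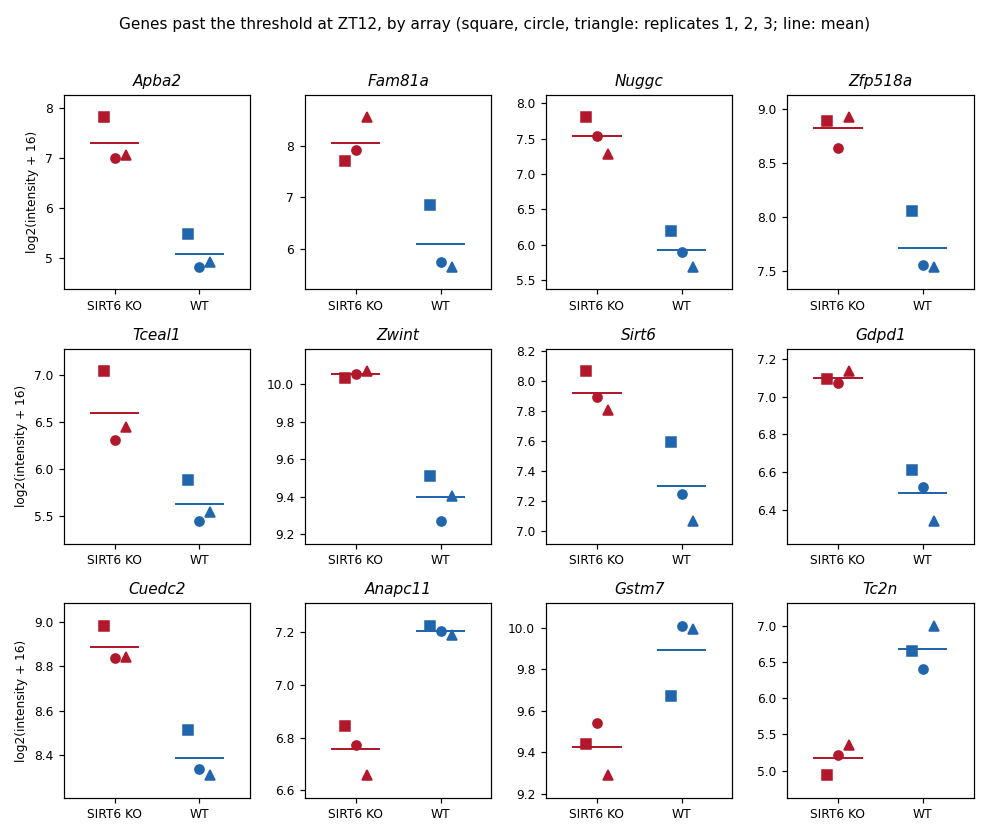
Log2(intensity + 16) of the 12 genes past the threshold at ZT12 in each of the 3 SIRT6 KO arrays (left, red) and 3 WT arrays (right, blue); squares, circles and triangles are replicates 1, 2 and 3, and lines are group means. In all 12 panels the KO and WT arrays do not overlap.

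Leaving out WT replicate 1 brought in 3 genes, 1 of them a predicted gene. Olfm3, an olfactomedin family glycoprotein, read 5.92, 6.95 and 6.74 in KO and 7.39, 7.84 and 8.40 in WT. Its difference was -1.34 ± 0.30 with all arrays (limma adjusted p = 0.063) and -1.58 without WT replicate 1 (limma adjusted p = 0.031). Spata24, a testis-associated gene named here after its values were seen, differed by 0.87 ± 0.22 with all arrays (limma adjusted p = 0.14) and by 1.101 without WT replicate 1 (limma adjusted p = 0.043).

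The same 12 genes can be read at the other 5 times, which use other KO and other WT arrays. All 60 of those differences had the sign seen at ZT12, and 29 of the 60 passed the threshold. Of all 13308 genes, 20, 24, 11, 13 and 29 passed at ZT0, ZT4, ZT8, ZT16 and ZT20. Apba2 and Tceal1 passed at all 6 times, Nuggc at 5, and Zfp518a and Tc2n at 4. In contrast Gstm7 and Anapc11 passed at ZT12 alone. For 6 of the 12 the 18 KO arrays of the whole day did not overlap the 18 WT arrays. These were Apba2, Fam81a, Nuggc, Zfp518a, Sirt6 and Cuedc2. The lowest KO array for Apba2, for example, read 6.97, and the highest WT array 6.63. The arrays compared include those of ZT12, by which the 12 genes were chosen. The share of all genes without such overlap is not given here, so this count has no background to set it against. The difference at ZT12 was the largest of the 6 times for 5 genes, Fam81a, Zfp518a, Zwint, Gstm7 and Anapc11. Tested directly, the difference at ZT12 against the mean difference at the other 5 times passed for 0 of 13308 genes in limma, with 182 (1.37%) at an unadjusted p under 0.05, and likewise for 0 without WT replicate 1, but for 49 with array weights. No gene is therefore called particular to lights-off here.

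**Figure D2:**
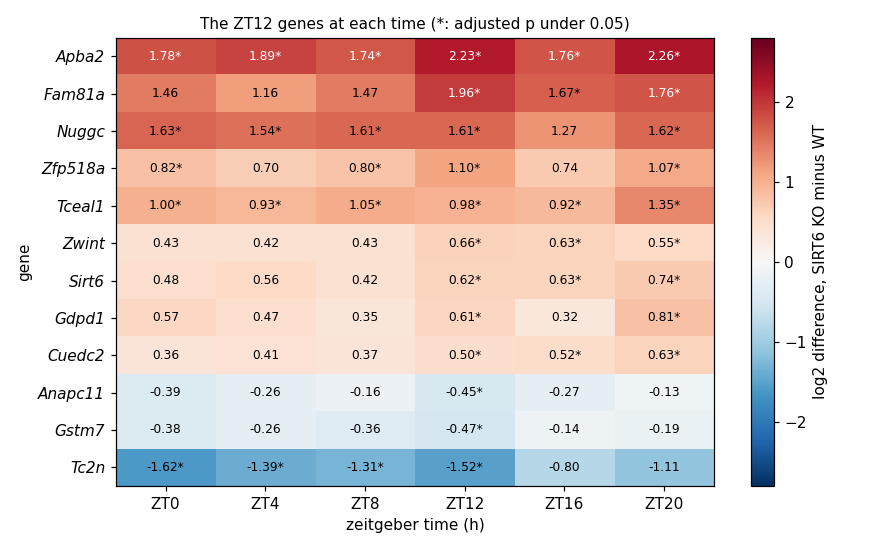
Log2 difference, SIRT6 KO minus WT, of the 12 genes past the threshold at ZT12 (rows) at each zeitgeber time in hours (columns), with an asterisk where the limma adjusted p was under 0.05. Red cells are higher in KO and blue cells lower; each row keeps 1 colour across the day.

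Beyond the threshold, the 3 KO arrays lay above all 3 WT arrays for 663 genes (4.98%) and below them for 464 (3.49%). Most of the largest differences in this set missed the threshold. Lrtm1 read 9.30, 10.19 and 10.08 in KO and 7.42, 8.36 and 7.96 in WT, a difference of 1.94 ± 0.54 (limma adjusted p = 0.21). Selenbp2, a selenium-binding protein that is expressed more in male liver, read 12.29, 12.27 and 11.82 in KO and 10.20, 9.34 and 11.52 in WT, a difference of 1.77 ± 0.68 (limma adjusted p = 0.45). At ZT4 the difference of Selenbp2 was -2.90, and the contrast of ZT12 with the other times had an unadjusted p of 0.0014 and an adjusted p of 1.00. Mme, the membrane protease neprilysin, read 8.48, 9.10 and 8.72 in KO and 10.33, 10.32 and 10.49 in WT, a difference of -1.62 ± 0.65 (limma adjusted p = 0.50). Cd36, a fatty acid translocase, read 8.79, 8.33 and 9.09 in KO and 10.37, 9.30 and 9.50 in WT, a difference of -0.98 ± 0.40 (limma adjusted p = 0.51), and -0.66 without WT replicate 1.
The other genes of this kind were Mmd2, AF357425, Ly6f and the imprinted noncoding RNA Rian, at differences of 1.87, 1.84, 1.72 and 1.69, and Arhgap10, the phosphate transporter Slc34a2, Glt1d1 and Rarres1, at -0.92, -0.87, -0.86 and -0.70. None of these 8 passed the threshold with all arrays or without WT replicate 1. For Mmd2 and Slc34a2 WT replicate 1 set much of the difference, which was 1.08 and -0.32 without it.

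None of the 17 clock genes with a probe set of their own passed the threshold between the labels at lights-off, although Ciart did with array weights. Their smallest unadjusted p was 0.166 (Cry2), 6 had a higher and 11 a lower mean in KO, and without WT replicate 1 the split was 3 and 14, again with 0 past the threshold. Per2 had no probe set with a single gene symbol. Arntl, which encodes BMAL1, read 7.88, 6.00 and 7.18 in KO and 7.24, 6.79 and 6.77 in WT, a difference of 0.09 ± 0.30 (limma adjusted p = 0.99). Clock differed by -0.04 and Npas2, its paralogue, by -0.20.

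Among the repressors, Ciart (CHRONO), which binds BMAL1, had the largest difference and the widest spread. It read 6.63, 9.88 and 8.16 in KO and 7.65, 9.45 and 9.87 in WT, a difference of -0.76 ± 0.54 (limma adjusted p = 0.83) that became -1.44 without WT replicate 1 (limma adjusted p = 0.41) and -0.64 without replicate 1 of both. With array weights Ciart passed the threshold, at -1.22 (limma adjusted p = 0.015) and at -1.40 without WT replicate 1 (limma adjusted p = 0.0071), whereas without KO replicate 1 its difference was 0.03. Per1 read 8.67, 9.47 and 8.69 in KO and 8.70, 9.18 and 9.07 in WT, and Per3 read 8.05, 8.67 and 8.05 in KO and 8.00, 8.40 and 8.57 in WT, so both groups overlapped. Cry1 and Cry2 differed by 0.04 and 0.25, and Bhlhe40 and Bhlhe41 by -0.17 and -0.14.

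Nr1d1 (REV-ERBα), a repressor of Arntl, read 6.85, 8.41 and 7.86 in KO and 7.48, 8.63 and 8.42 in WT (difference -0.47 ± 0.45, limma adjusted p = 0.91). Nr1d2 differed by -0.13 and Rora by 0.10. Of the PAR bZIP factors, which act on D-boxes in output genes, Dbp read 7.94, 10.23 and 9.07 in KO and 8.66, 9.65 and 9.77 in WT (difference -0.28 ± 0.48, limma adjusted p = 0.97). Tef differed by -0.09, while a second probe set of Tef differed by 0.13; Hlf differed by 0.00 and Nfil3, their repressor, by 0.12.

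Within the ZT12 groups many of these genes followed the replicate. Of the 17 clock genes, 10 were lowest in replicate 1 of both groups, among them Ciart, Dbp, Nr1d1, Nr1d2, Tef and Hlf, and 1, Arntl, was highest in replicate 1 of both. Nfil3 followed no such order, at 8.60, 7.90 and 8.60 in KO and 7.68, 8.57 and 8.47 in WT. Among the 10, Per3 and Cry2 were lowest in KO replicate 1 by little, at 8.05 against 8.054 and 8.493 against 8.497 in KO replicate 3. The share of all genes lowest in replicate 1 of both groups is not given here, so the count of 10 has no background.

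**Figure D3:**
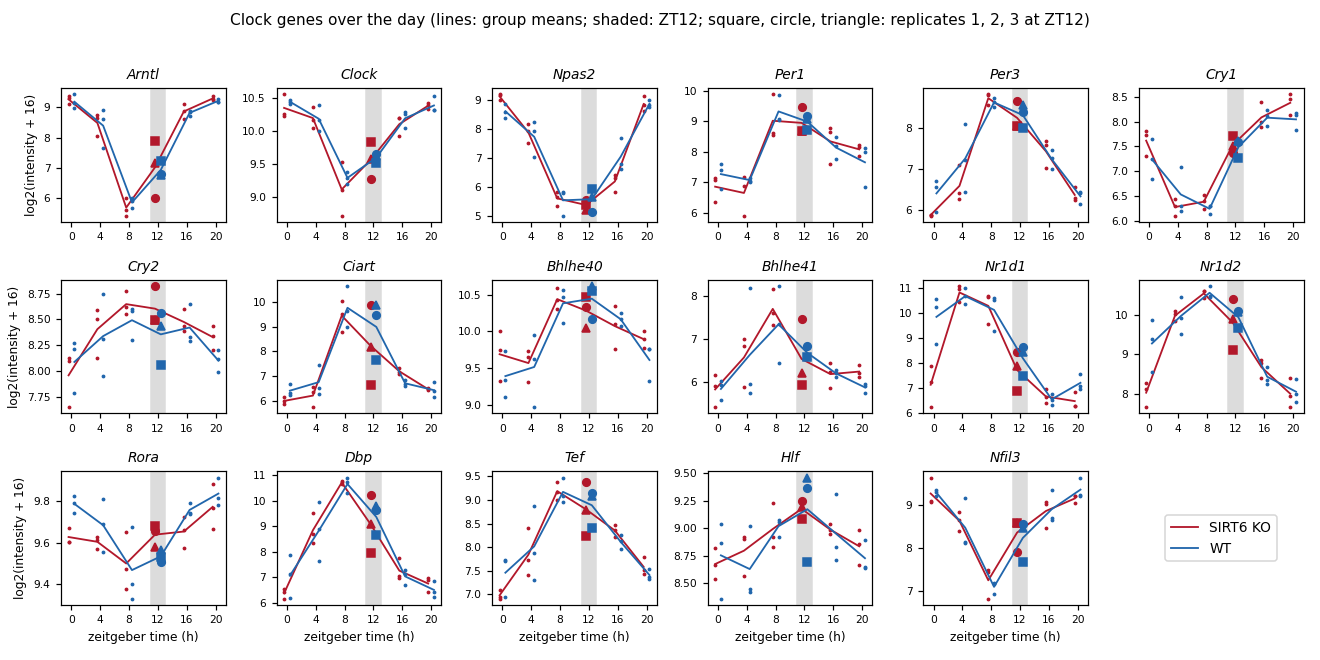
Log2(intensity + 16) of 17 clock genes against zeitgeber time (h) in SIRT6 KO (red) and WT (blue) liver; lines join group means, small dots are arrays, and the shaded band marks ZT12, where squares, circles and triangles are replicates 1, 2 and 3. At ZT12 the KO and WT arrays overlap for all genes except Rora, whose 3 KO arrays lie above the WT arrays at a difference of 0.10.

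The arrays of Ciart, Tef and Per3 overlapped between the labels at ZT12. Their promoter sequences are shown for E-boxes (Ciart, Tef) and D-boxes (Per3), through which BMAL1 and the PAR bZIP factors are known to act. The sequences are RefSeq windows of build GRCm38.p6, 250 bases before to 50 after the annotated start. They were searched on both strands for the E-box CACGTG and the D-box TTATGTAA, which are in capitals. A match is a description of letters and not of binding.
Ciart (chr3:95882179-95882478, minus strand): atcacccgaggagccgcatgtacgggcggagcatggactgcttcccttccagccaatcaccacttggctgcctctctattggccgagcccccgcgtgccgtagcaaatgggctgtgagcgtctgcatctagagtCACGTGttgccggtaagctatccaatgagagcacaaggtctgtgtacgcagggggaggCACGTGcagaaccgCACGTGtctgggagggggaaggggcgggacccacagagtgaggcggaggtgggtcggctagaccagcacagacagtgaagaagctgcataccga
Tef (chr15:81802423-81802722, plus strand): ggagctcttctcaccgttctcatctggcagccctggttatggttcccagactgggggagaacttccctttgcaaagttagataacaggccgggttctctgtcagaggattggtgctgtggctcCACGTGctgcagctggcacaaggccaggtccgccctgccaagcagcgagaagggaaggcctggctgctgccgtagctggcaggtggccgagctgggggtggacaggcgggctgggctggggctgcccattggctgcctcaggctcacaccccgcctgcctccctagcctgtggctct
Per3 (chr4:151044616-151044915, minus strand): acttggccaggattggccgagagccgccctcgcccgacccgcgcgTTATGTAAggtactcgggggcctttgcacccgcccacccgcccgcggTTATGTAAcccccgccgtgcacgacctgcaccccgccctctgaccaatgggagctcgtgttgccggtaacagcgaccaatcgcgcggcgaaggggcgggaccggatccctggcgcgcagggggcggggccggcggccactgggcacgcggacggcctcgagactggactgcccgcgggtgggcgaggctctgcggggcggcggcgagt
The window of Ciart holds 3 copies of CACGTG, the Tef window shown 1, as does the other window of Tef, and that of Per3 holds 2 copies of TTATGTAA. Of all 32851 promoter windows 7.15% hold CACGTG and 0.938% hold TTATGTAA. Windows were found for 16 of the 17 clock genes, and 5 of the 16, Bhlhe41, Ciart, Cry1, Per1 and Tef, hold CACGTG. Counted by window, as for all promoters, this was 6 of 21. Windows were found for 11 of the 12 genes past the threshold. Of the 16 windows of these genes 1, that of Tceal1, holds CACGTG and 0 hold TTATGTAA. Of the 91 genes named by the rule, 77 have a window, with 100 windows in all. The nuclear receptor motif AGGTCA lies in 16.3% of all promoter windows and in 24 of those 100. The heat shock cores GGAACNTTC and GAANNTTC lie in 0.977% and 7.86% of all windows, and in 3 and 8 of those 100.

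The genes on which WT replicate 1 differed most from the other WT arrays show what the replicate 1 profile is made of. Guca2b, which encodes the gut hormone uroguanylin, read 13.59, 6.32 and 6.29 in KO and 12.87, 6.05 and 6.23 in WT. Sult1e1, the estrogen sulfotransferase, read 9.98, 5.71 and 5.70 in KO and 11.94, 5.74 and 4.74 in WT. Both genes were thus at a high level in replicate 1 of both groups and low in the other 4 arrays. Rragd, a RAG GTPase of the mTORC1 pathway, and Ubd, an interferon-induced ubiquitin-like protein, showed the same pattern. High levels of Guca2b were not confined to ZT12: 13 of the 36 arrays of the cohort lay above the midpoint of its range, 7 KO and 6 WT, 11 of them at other times.

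Other genes were high in replicate 1 of both groups but not there alone. Igh-VS107 read 10.06, 6.30 and 9.81 in KO and 11.30, 5.48 and 6.64 in WT. Its group difference was 0.91, while a dimmer second probe set of Igh-VS107 differed by -0.92. Cxcl13 read 11.96, 6.61 and 9.47 in KO and 12.31, 7.93 and 6.31 in WT. Jchain read 9.48, 6.35 and 8.97 in KO and 11.04, 5.31 and 6.54 in WT. All 3 were highest in replicate 1 of both groups and were also high in KO replicate 3; Jchain and Cxcl13 are genes of plasma cells and of lymphoid chemotaxis. Mybl1 read 8.27, 5.78 and 7.11 in KO and 10.60, 5.32 and 5.42 in WT. Cdkn1a, the inhibitor p21, read 8.90, 5.92 and 7.47 in KO and 10.99, 5.94 and 5.92 in WT, and Lcn2, an acute phase protein, read 12.48, 8.59 and 10.63 in KO and 12.48, 8.52 and 7.84 in WT; both are list members named after their values were seen. Genes low in WT replicate 1 were Serpina4-ps1, Obp2a, Hsd3b5, Acot3, Depp1, Cyp4a14, Etnppl and Cyp2b9. Hsd3b5, a male-biased steroid enzyme, read 10.09, 11.08 and 10.48 in KO and 7.01, 10.37 and 10.57 in WT, with WT replicate 1 far below the other 5 arrays. In contrast Obp2a, Acot3, Depp1, Cyp4a14 and Etnppl were low in replicate 1 of both groups. Cyp2b9, a female-biased cytochrome P450, read 9.37, 5.33 and 12.07 in KO and 6.11, 10.88 and 11.26 in WT. Cyp2b9 therefore varied by replicate in KO without following replicate 1. None of these 16 genes passed the threshold between the labels with all arrays.

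**Figure D4:**
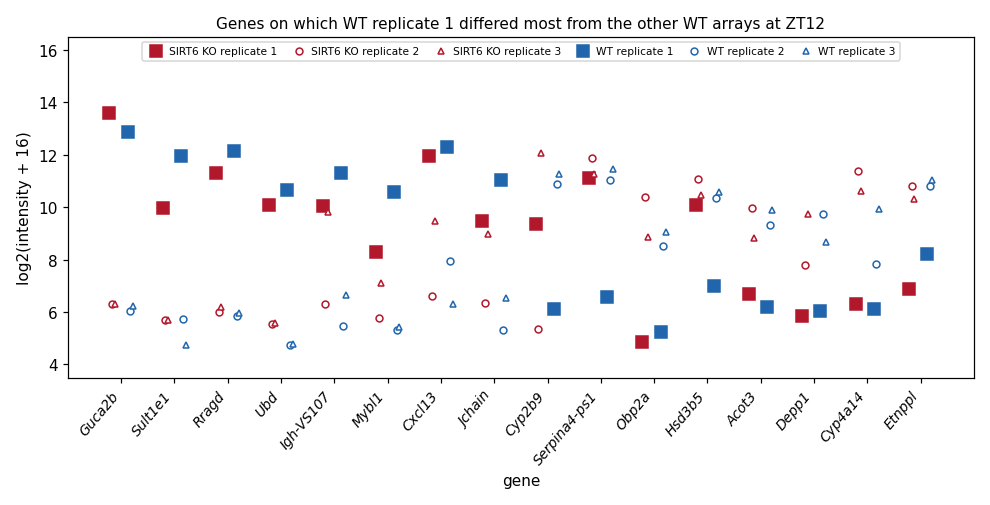
Log2(intensity + 16) at ZT12 of the 16 genes with the largest deviations of WT replicate 1 from the other WT arrays (8 highest, then 8 lowest; genes on the horizontal axis); filled squares are replicate 1, open symbols replicates 2 and 3, SIRT6 KO in red to the left of WT in blue. Guca2b, Sult1e1, Rragd and Ubd are high in replicate 1 of both groups.

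Gene lists were described by their counts and medians beside all 13308 genes, of which 51.9% had a higher mean in KO and whose median difference was 0.01 (56.4% and 0.03 without WT replicate 1, 54.1% and 0.02 without replicate 1 of both). Apart from Sirt6 itself, 0 members of the 45 lists passed the threshold with all arrays, without WT replicate 1 or without replicate 1 of both, in limma. With array weights some did, among them Usp18, Ifi27 and Baat. At an unadjusted p under 0.05 there were 36 of the 726 list genes tested (4.96%, against 4.51% of all genes). Among the other sirtuins, Sirt7, the nucleolar sirtuin, read 7.83, 8.09 and 7.90 in KO and 8.03, 8.20 and 8.30 in WT (difference -0.24 ± 0.11, limma adjusted p = 0.59), and Sirt1 stood at a difference of -0.05. Of the 20 genes of NAD synthesis and use 8 had a higher and 12 a lower mean, with Nmnat3, a mitochondrial NAD synthase, at 0.44 ± 0.19 (limma adjusted p = 0.54).

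Genes of lipid synthesis had a lower mean in KO in most cases. Of 23 lipogenic genes driven by SREBP1, 19 were lower and 4 higher (median -0.16, 0 past the threshold), and 5 had all KO arrays below all WT arrays, against 3.49% of all genes. The mean level of the list was 10.44, 10.68 and 10.55 in the KO arrays and 10.51, 10.80 and 10.89 in the WT arrays. The groups thus overlapped, with WT replicate 1 below KO replicates 2 and 3. Scd1, the stearoyl-CoA desaturase, read 12.58, 12.56 and 12.62 in KO and 12.74, 12.72 and 12.78 in WT, a difference of -0.16 ± 0.08 (limma adjusted p = 0.64). Slc25a1, which exports citrate for fatty acid synthesis, read 11.59, 11.65 and 11.63 in KO and 11.66, 11.83 and 11.85 in WT (difference -0.15 ± 0.07, limma adjusted p = 0.61). Fasn, Elovl6 and Fads2 differed by -0.17, -0.29 and -0.16. The median was -0.19 without WT replicate 1 and -0.18 without replicate 1 of both. It was -0.15, -0.10, -0.10, 0.18 and 0.03 at ZT0, ZT4, ZT8, ZT16 and ZT20, so it was positive at ZT16 and ZT20.
For cholesterol synthesis genes driven by SREBP2, 15 of 20 were lower in KO (median -0.08). The count was 10 of 20 without WT replicate 1 (median -0.01) and 16 of 20 without replicate 1 of both groups (median -0.12). Of 14 genes of fatty acid uptake and binding, 10 were lower (median -0.07), led by Cd36 and by Fabp2, an intestinal-type fatty acid-binding protein, at -0.92 ± 0.39 (limma adjusted p = 0.54).

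Interferon-stimulated genes had a higher mean in KO for 26 of 27 members with all arrays (median 0.35, 0 past the threshold) and for 27 without WT replicate 1 (median 0.78). The median was 0.10 without WT replicate 3. Their mean level was 9.39, 8.17 and 9.06 in the KO arrays and 9.48, 8.13 and 7.81 in the WT arrays, so the groups overlapped, and KO replicate 2 lay with the 2 low WT arrays. Usp18, which restrains interferon signalling, read 9.50, 9.04 and 9.58 in KO and 9.67, 8.12 and 7.87 in WT (difference 0.82, limma adjusted p = 0.73). Ifi27 read 10.57, 10.27 and 10.75 in KO and 10.54, 9.07 and 9.32 in WT (difference 0.88 ± 0.41, limma adjusted p = 0.61), and Stat2, a transducer of interferon signals, differed by 0.29 ± 0.13 (limma adjusted p = 0.60). The median of the list was 0.31, -0.25, -0.20, -0.24 and 0.16 at ZT0, ZT4, ZT8, ZT16 and ZT20.

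Markers of Kupffer cells, the liver macrophages, had a higher mean in KO as well, for 14 of 15 (median 0.36, 0 past the threshold). The median was 0.91 without WT replicate 1, 0.58 without replicate 1 of both and -0.16 without WT replicate 3. Their summed intensity was 5030 to 14103 in KO and 4355 to 15059 in WT. In bulk tissue, fewer cells of a type and less RNA per cell cannot be told apart. Clec4f, the Kupffer cell lectin, read 9.08, 8.41 and 9.85 in KO and 7.13, 9.09 and 8.15 in WT (difference 0.99 ± 0.39, limma adjusted p = 0.49), and was lowest in WT replicate 1, where 12 of the 15 markers were above both other WT arrays. Markers of lymphocytes went the other way with all arrays, as 3 of 11 were higher in KO (median -0.11). Without WT replicate 1, 10 of 11 were higher (median 0.74), and 10 of 11 without replicate 1 of both groups (median 0.49). The summed intensity of lymphocyte markers was 1005 to 2982 in KO and 937 to 7163 in WT. For 5 neutrophil and monocyte markers the median was -0.10 with all arrays, 0.82 without WT replicate 1 and 0.11 without replicate 1 of both groups. The part of these cells in the difference of the interferon-stimulated genes was not tested. The 14 endothelial markers had a median of -0.03. For the 14 stellate cell markers it was -0.02 with all arrays, 0.30 without WT replicate 1 and 0.19 without replicate 1 of both groups.

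Proliferation genes were highest in WT replicate 1. Of 20 cell cycle genes 16 had a higher mean in KO with all arrays (median 0.11) and 19 without WT replicate 1 (median 0.46), in each case with 0 past the threshold, and the median was -0.12 without WT replicate 2. Mcm6, a helicase subunit, read 7.68, 6.96 and 7.86 in KO and 9.50, 6.14 and 5.87 in WT, so the highest and the lowest of the 6 values were both from WT arrays. Without WT replicate 1 its difference was 1.496 (limma adjusted p = 0.55), against 0.33 with it.

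Bile acid genes and PPARA targets also varied with this array. Of 21 genes of bile acid synthesis and transport, 15 were lower in KO (median -0.08), 17 without WT replicate 1 (median -0.35) and 15 without replicate 1 of both (median -0.05). Baat, which conjugates bile acids to taurine and glycine, read 9.45, 9.77 and 9.15 in KO and 9.999, 10.15 and 10.08 in WT (difference -0.62 ± 0.25, limma adjusted p = 0.52). Fgfr4, the receptor through which Fgf15 restrains bile acid synthesis, read 9.51, 9.28 and 9.40 in KO and 8.87, 9.06 and 9.07 in WT (difference 0.40 ± 0.12, limma adjusted p = 0.27). In both the 2 groups did not overlap. In the list of 21 genes only 1 lay wholly above WT and 1 wholly below. Of all genes, 4.98% lay above and 3.49% below, so the list was near these shares. Cyp8b1, the sterol 12-alpha-hydroxylase, was low in replicate 1 of both groups, at 9.52, 11.52 and 11.02 in KO and 9.37, 11.38 and 11.17 in WT. PPARA targets were higher in KO for 15 of 23 (median 0.05) with all arrays, for 4 of 23 without WT replicate 1 (median -0.08) and for 15 of 23 without replicate 1 of both (median 0.04).

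Endoplasmic reticulum folding genes were highest in KO replicate 1. Of 23, 21 were higher in KO with all arrays (median 0.11, 0 past the threshold) and without WT replicate 1 (median 0.13), but 15 without replicate 1 of both (median 0.03), and the median was -0.01 without KO replicate 1. Sdf2l1, a chaperone cofactor of BiP, read 11.18, 9.43 and 9.92 in KO and 9.72, 9.25 and 8.76 in WT (difference 0.93 ± 0.35, limma adjusted p = 0.45). Dnajb11 and Dnajc3, co-chaperones of BiP, differed by 0.47 and 0.30. Of 30 proteasome subunits 22 were higher in KO (median 0.04), and Psmb5, a catalytic subunit, read 11.37, 11.29 and 11.35 in KO and 11.06, 11.22 and 11.13 in WT (difference 0.20 ± 0.05, limma adjusted p = 0.19). The 40 genes of the respiratory chain had a median of -0.01 with 19 higher, and -0.09 with 6 higher without WT replicate 1.

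**Figure D5:**
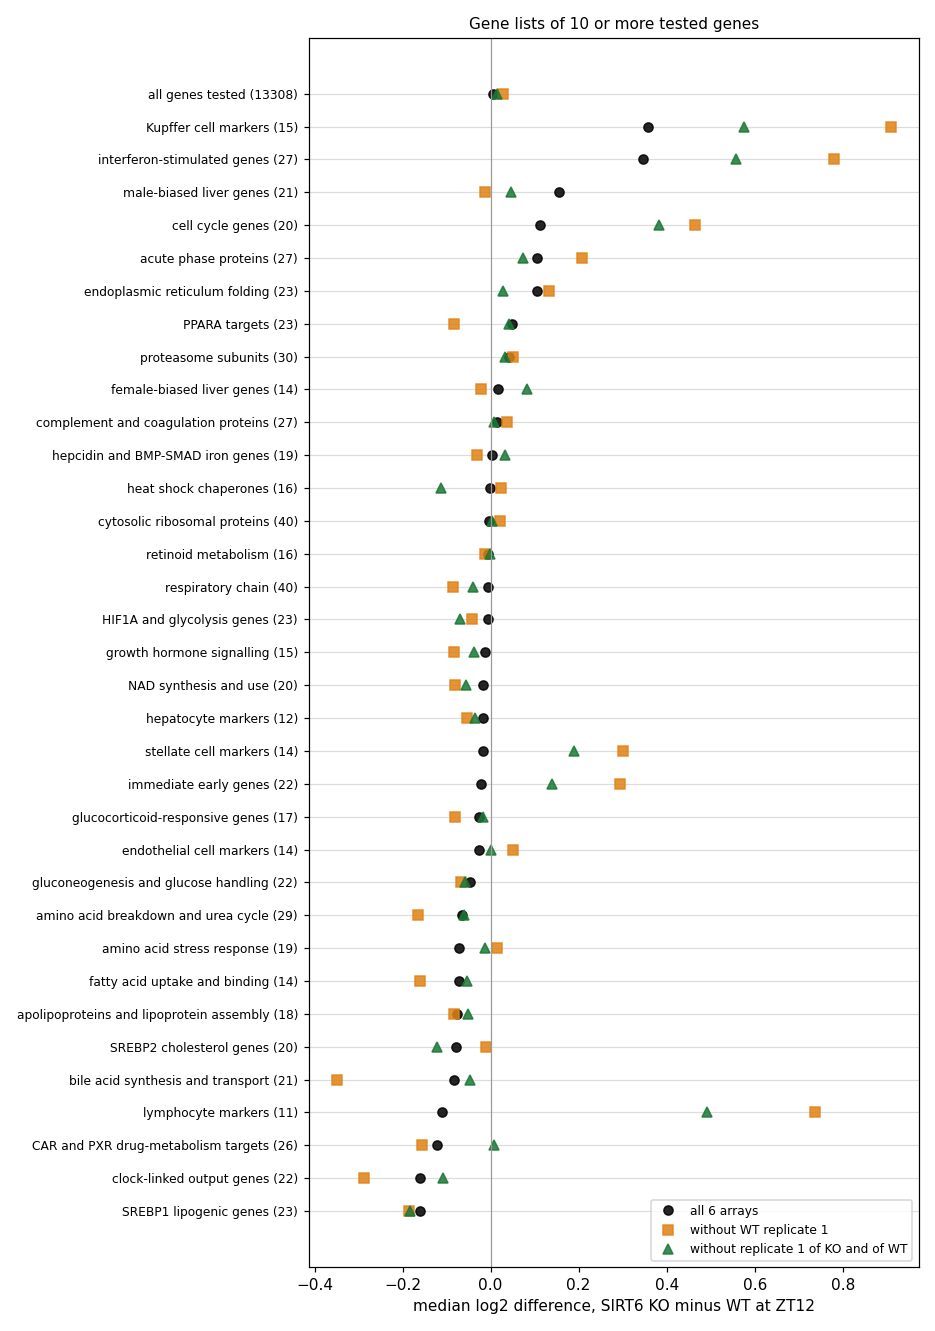
Median log2 difference, SIRT6 KO minus WT at ZT12, of all genes tested and of each list of 10 or more tested genes (number in brackets), with all 6 arrays (circles), without WT replicate 1 (squares) and without replicate 1 of both groups (triangles). The lists of Kupffer cell, lymphocyte, interferon-stimulated and cell cycle genes move furthest to the right when WT replicate 1 is left out, while the SREBP1 list stays between -0.16 and -0.19.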

How the data were processed

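Liver RNA was measured on single-colour Affymetrix arrays in 72 samples, grouped by their titles. Per the submitters' processing notes, Affymetrix Expression Console 1.1.1 and PLIER 2.0 were used; the normalization settings and the build were not stated there. The values the authors deposited are probe set intensity on a linear scale. Of 41345 probe sets, 23521 had 1 gene symbol; a gene with several was represented by its brightest on average over the 72 arrays. A pseudocount of 16 was added before taking log2, and the dimmest 40% of genes were left out. Differences came from limma 3.58.1 (R 4.3.3), as contrasts of 12 group means over the 36 arrays of the SIRT6 cohort, with a trend, and corrected (Benjamini-Hochberg) over 13308 genes and 6 times (79848 tests). The fit was tested on simulated data with known changes.

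The rule for named genes took Sirt6, the clock genes, up to 12 called genes in each direction, the 8 largest differences each way among groups that did not overlap, up to 4 members of each list with an unadjusted p under 0.05, and the 8 highest and 8 lowest deviations of WT replicate 1. Members, lists and the rule were chosen with earlier results of these data known, so lists got no test, and list members named in the text beyond the rule, among them Usp18, Mcm6, Cyp8b1, Scd1, Fasn, Elovl6, Fads2, Sirt1, Cdkn1a and Lcn2, were named after their values were seen. The labels do not say whether replicate numbers pair the samples, and the main fit did not pair them. Deviations of KO and WT arrays with the same number correlated over 0.1 in 11 of 18 pairs, from -0.361 to 0.743. At ZT12 they correlated at 0.743, 0.532 and 0.0986, while KO replicate 2 and WT replicate 3 correlated at 0.739. These values do not settle whether the numbers pair the samples.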

Additional observations from a re-analysis of the deposited data

How the results depend on the processing

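The count of genes past the threshold at ZT12 (12, with 9 higher and 3 lower) was recomputed under 25 alternatives, and no result changed sign while past the threshold. With 1 array left out in turn it ran from 4 to 14 (3 to 10 higher, 1 to 4 lower), lowest without WT replicate 2, with 6 without WT replicate 3. Array weights gave 979 genes (559 higher, 420 lower), and 49 for ZT12 against the other times; the weights ran from 0.226 for WT replicate 1 to 5.77 for KO replicate 3, so the arrays counted very unequally. Added after seeing the data, weights without WT replicate 1 gave 951 (577 and 374), and 35 for ZT12 against the other times; quantile normalization without WT replicate 1 gave 5 lower, and leaving out replicate 1 of both groups gave 1 lower. With the first component of the variation within groups as a covariate there were 60 (51 and 9), and with all 72 arrays in the fit 23 (19 higher). The 6 arrays alone gave 0 (0 higher, 0 lower), with 381 at an unadjusted p under 0.05. Centred array medians gave 14 higher, no filter 1 lower, a filter of the lowest 60% gave 6 (4 higher), correction over ZT12 alone 1 lower, and a threshold of 0.01 gave 6 (5 and 1). The fit with the replicate number as a replicate block gave 12 (10 and 2), 11 of them among the main 12; KO replicate 2 correlated best with WT replicate 3 (0.739), so not every sample correlated best with its own number. Zfp518a passed in 24 of 25 settings and Apba2 in 23 of 24, while Gdpd1 passed in 12 of 24 and Anapc11 in 11 of 25. Background correction and scan batch could not be varied, since values per probe and scan labels are not used here.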

Other observations

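None of the sex-biased liver genes passed the threshold at ZT12 in the fit described above. Of 21 male-biased genes 13 had a higher mean in KO (median 0.16). The count was 10 without WT replicate 1 (median -0.01) and 13 without replicate 1 of both groups (median 0.05). Cyp2u1 read 10.34, 10.95 and 11.01 in KO and 9.28, 10.21 and 10.12 in WT (difference 0.90 ± 0.28, limma adjusted p = 0.30). Of 14 female-biased genes 8 had a higher mean in KO (median 0.02). Trim24, a repressor of retinoic acid signalling, read 10.26, 10.25 and 9.91 in KO and 9.68, 9.34 and 9.33 in WT (difference 0.69 ± 0.27, limma adjusted p = 0.47).

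Hamp2, a hepcidin paralogue that mice carry beside the iron hormone Hamp, read 6.42, 9.82 and 9.47 in KO and 4.90, 7.51 and 7.20 in WT (difference 2.03 ± 0.84, limma adjusted p = 0.52). It was lowest in replicate 1 of both groups. Across the cohort the first component of the variation within groups held 52.6% of it.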
